A study of Mus musculus with 6 samples.

Results

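Lgr4, a receptor for R-spondins, was examined in mouse liver together with 9 genes that act beside it or answer to it. These are the second R-spondin receptor Lgr5, the ubiquitin ligases Rnf43 and Znrf3, the feedback scaffold Axin2, the transcription factor Tbx3, and the pericentral hepatocyte genes Glul, Oat, Slc1a2 and Rhbg. The 10 genes were looked up by symbol among 17624 genes, and each symbol had 1 row. Lgr4 was selected on its measured difference between the groups compared here, so its values are a description and carry no test. The other genes were picked by their role in the pathway, with results of these data known. The question was whether they followed Lgr4.

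Hepatic mRNA was measured by RNA-seq in 3 conF1-F and 3 iAsF1-F livers, all from C57BL/6 females of the F1 generation. The fathers of iAsF1-F mice had inorganic arsenic (iAs), given as sodium arsenite in drinking water, before they were mated with unexposed females. The fathers of conF1-F mice did not, and no F1 mouse of either group was exposed itself. The labels name a feeding status at collection and the study a refeeding condition, and the age at collection is not given in the sources used here. The livers are biological triplicates, but which of them share a father or a litter is not given, so p-values measure the spread between these livers. Whole liver was used, in which fewer cells of a type and less RNA per cell cannot be told apart.

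Wnt proteins from the endothelium of the central vein reach the hepatocytes around that vein and stabilize β-catenin there. R-spondins strengthen the signal. When bound to Lgr4 or Lgr5, they remove Rnf43 and Znrf3 from the cell surface, and these 2 ligases would otherwise mark Frizzled receptors for degradation. Axin2, Rnf43, Znrf3 and Lgr5 are themselves transcribed in response to β-catenin, which closes a feedback loop. In the liver the same signal maintains the pericentral program, in which a thin layer of hepatocytes takes up ammonia and glutamate and makes glutamine.

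Promoter sequences from RefSeq (GRCm38.p6) were found for 6 of the 10 genes, namely Lgr4, Rnf43, Axin2, Glul, Oat and Slc1a2. Each window held the 250 bases before an annotated start. The windows were searched on both strands for the core of TCF/LEF sites, the DNA sequence through which β-catenin acts, as CTTTGA or CTTTGT. These letters were found in 1 of the 7 windows of these 6 genes and in 27.6% of all 32851 windows of this length. Shown are Lgr4, which differed between the groups, Glul, which marks pericentral hepatocytes, and Slc1a2, the gene with matches. Capitals mark the motif. All 3 lie on the + strand, at chr2:109917397-109917646, chr1:153899679-153899928 and chr2:102706188-102706437.
Lgr4: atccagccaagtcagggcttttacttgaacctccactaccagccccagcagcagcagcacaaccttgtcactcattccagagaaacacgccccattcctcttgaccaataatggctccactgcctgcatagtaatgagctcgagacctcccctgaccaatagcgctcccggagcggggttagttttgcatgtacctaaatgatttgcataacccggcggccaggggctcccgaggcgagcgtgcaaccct
Glul: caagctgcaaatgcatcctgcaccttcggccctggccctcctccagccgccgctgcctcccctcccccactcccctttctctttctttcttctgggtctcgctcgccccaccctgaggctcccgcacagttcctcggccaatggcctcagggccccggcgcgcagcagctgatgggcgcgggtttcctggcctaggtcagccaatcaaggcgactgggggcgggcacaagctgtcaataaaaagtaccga
Slc1a2: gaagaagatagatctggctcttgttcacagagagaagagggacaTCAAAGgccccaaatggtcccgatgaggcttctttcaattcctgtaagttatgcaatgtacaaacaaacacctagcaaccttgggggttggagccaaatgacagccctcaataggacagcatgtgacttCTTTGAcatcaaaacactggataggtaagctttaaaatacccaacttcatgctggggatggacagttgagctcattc

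The Slc1a2 window held CTTTGA on the − strand, with its first base 206 before the start, and again on the + strand at 77. This window lies inside the gene, which spans chromosome 2 from 102658659 to 102790784. The annotated start it precedes is thus an internal one, and no window before the first base of Slc1a2 was searched. A match is a run of letters and not a shown binding site, and a window without one shows only that these letters are not in it.

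Values are given as the deposited RPKM, which relate the reads of a gene to its transcript length and to the size of the library. The 6 livers were alike in their RPKM sums, which lay between 295275 and 306096. Between 4609 and 6083 genes were listed at 0 in a liver. Among the 2449 genes above 10 RPKM in some liver, 329 were listed at 0 in another. Of the genes tested below, 19.6% were listed at 0 in at least 1 liver. So were Slc1a2 and Rhbg among the 6 of the 10 genes that averaged 1 RPKM or more. A value of 0 is therefore given as listed, with each liver's value. By their decimals, many values are means of several entries of a gene, and how these entries changed one by one cannot be told apart. No read counts were used, so the depth behind a value is unknown. The 6448 genes that averaged 1 RPKM or more were compared as log2(RPKM + 1) by limma. A gene was taken to have changed at a Benjamini-Hochberg adjusted p below 0.05 over all of them. Log2 fold changes are the iAsF1-F mean minus the conF1-F mean of these log values, and come out too small for genes of low RPKM.

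Lgr4 was low in every conF1-F liver and higher in every iAsF1-F liver. The 3 conF1-F livers had 0.124, 0.203 and 0.186 RPKM, and the 3 iAsF1-F livers 3.53, 3.25 and 2.87 RPKM. The lowest iAsF1-F value was thus well above the highest conF1-F value, and no liver was listed at 0. Group means were 0.171 ± 0.0416 and 3.22 ± 0.332 RPKM (SD, n = 3 each), 18.8-fold apart, and the log2 fold change was 1.85. It lay between 1.79 and 1.91 with any single liver left out. Lgr4 spans chromosome 2 from 109917647 to 110014257 (+ strand, GRCm38), where the annotation has 4 transcripts. Its values are means of at least 2 entries, so a change of 1 entry and a change of the whole gene cannot be told apart here.

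Lgr5, which binds the same ligands, was near the bottom of the range in both groups. It had 0.217, 0.108 and 0 RPKM in conF1-F and 0.227, 0.0867 and 0.594 RPKM in iAsF1-F. The groups overlapped, with the highest value in iAsF1-F replicate 3. In iAsF1-F livers Lgr4 was therefore the more abundant of the 2 receptors per length of transcript, and in 2 of 3 conF1-F livers as well. In conF1-F replicate 1 the order was the reverse.

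The ligases Rnf43 and Znrf3, which Lgr4 and Lgr5 counteract, were both under 1 RPKM in every liver. Rnf43 had 0.575, 0.447 and 0.221 RPKM in conF1-F and was listed at 0 in all 3 iAsF1-F livers. Znrf3 was listed at 0 in all 3 conF1-F livers, and had 0, 0.274 and 0.436 RPKM in iAsF1-F. The groups did not overlap for Rnf43 (two-sided exact permutation test, p = 0.1, the smallest that 3 against 3 allow) and overlapped at 0 for Znrf3 (p = 0.4). Groups without overlap were found for 11.5% of the genes tested. No fold change is given for either gene, since each had 1 group wholly at 0.

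Axin2 and Tbx3, which β-catenin switches on, did not separate the groups. Axin2, a scaffold of the complex that degrades β-catenin, had 0, 0.673 and 0.198 RPKM in conF1-F and 0.766, 0.390 and 0.545 RPKM in iAsF1-F. The lowest level was in conF1-F replicate 1, and conF1-F replicate 2 lay within the iAsF1-F range. Tbx3, a repressor of the T-box family, had 0.308, 1.89 and 1.63 RPKM in conF1-F and 1.07, 1.07 and 1.204 RPKM in iAsF1-F. The 3 iAsF1-F livers lay between conF1-F replicate 1 and the other two conF1-F livers. Its log2 fold change was −0.03 (95% interval −0.91 to 0.86, adjusted p = 0.999 from limma), and −0.38 without conF1-F replicate 1. With a mean of 1.196 RPKM Tbx3 was just above the minimum for the test. Axin2 (0.429 RPKM), Rnf43 (0.207 RPKM), Lgr5 (0.205 RPKM) and Znrf3 (0.118 RPKM) were below it. With no minimum, each of these 4 genes had an adjusted p = 0.819 from limma.

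**Figure D1:**
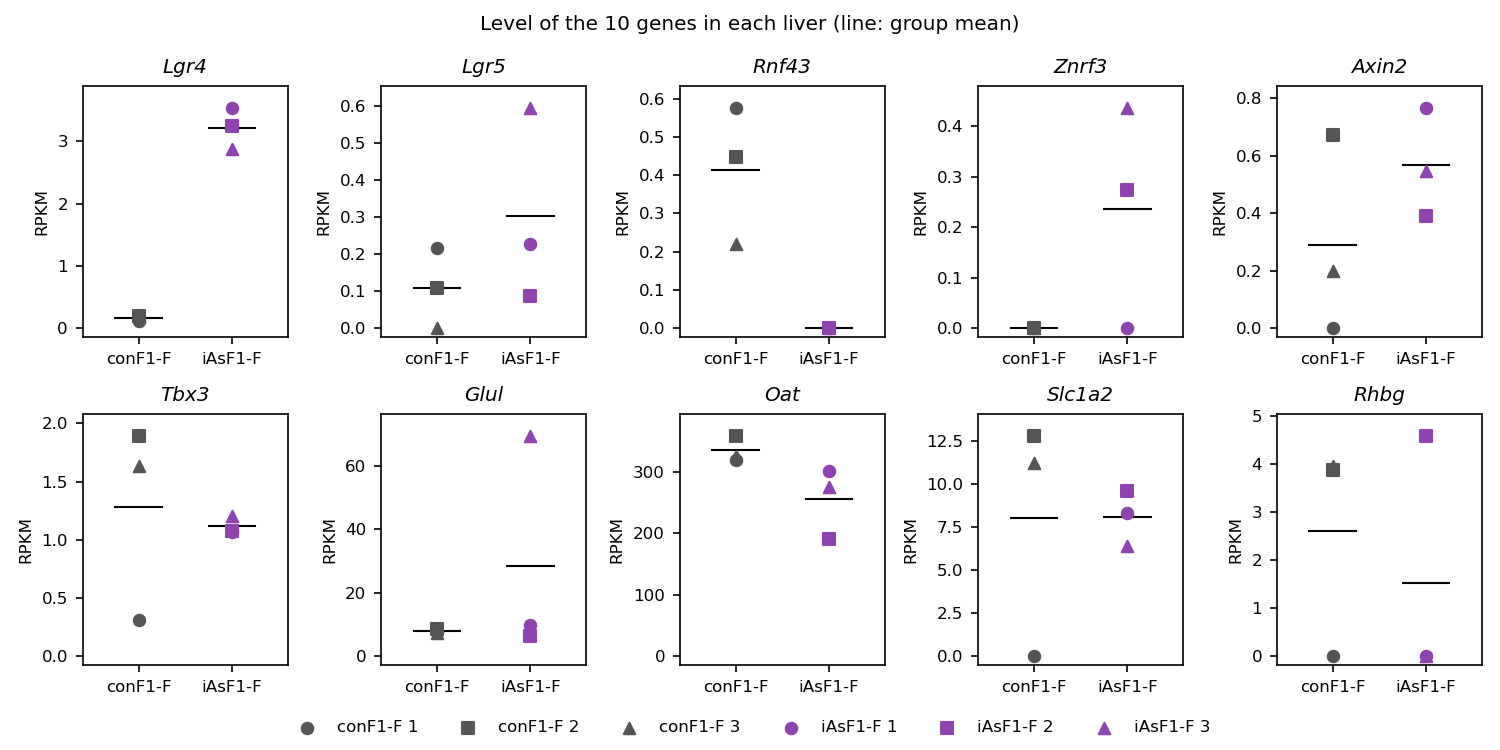
RPKM of each of the 10 genes in each liver (one panel per gene, linear y axis that includes 0, on its own scale; symbols give the replicate, lines the group mean). Lgr4 separates the groups with a wide gap (at most 0.203 against at least 2.87 RPKM), and Glul is high in iAsF1-F replicate 3 alone (69.4 RPKM). Among the 10 genes, conF1-F replicate 1 is the lowest liver for Lgr4, Axin2, Tbx3 and Slc1a2, and shares a 0 with other livers for Znrf3 and Rhbg.

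Glul, which encodes glutamine synthetase and marks the innermost pericentral hepatocytes, was alike in 5 livers and high in 1. It had 7.55, 8.61 and 7.16 RPKM in conF1-F, and 9.65, 6.30 and 69.4 RPKM in iAsF1-F. The value in iAsF1-F replicate 3 was 7.19 times the next highest, and the other two iAsF1-F livers lay on either side of the conF1-F range. The log2 fold change was 1.01 (95% interval −1.19 to 3.21, adjusted p = 0.877 from limma). Without iAsF1-F replicate 3 it was 0.01 (adjusted p = 0.994 from limma). The Glul difference between the groups thus came from that liver. A liver more than 5 times the next highest was found for 104 of the tested genes (1.61%), and 29 of these stood out in iAsF1-F replicate 3.

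Oat encodes ornithine aminotransferase, a mitochondrial enzyme that feeds ornithine carbon to glutamate, and was the most abundant of the 10 genes. It had 319, 359 and 326 RPKM in conF1-F and 301, 191 and 276 RPKM in iAsF1-F. All 3 iAsF1-F livers were below all 3 conF1-F livers, opposite in direction to Lgr4. Means were 335 ± 20.9 and 256 ± 58.0 RPKM (SD, n = 3 each), and the log2 fold change was −0.41 (SE 0.18, 95% interval −0.87 to 0.05). This did not pass the test (adjusted p = 0.877 from limma), and the exact permutation test gave p = 0.1 (two-sided), the smallest it can. The Oat log2 fold change was −0.21 without iAsF1-F replicate 2, the lowest liver. Oat was the only 1 of the 5 tested genes other than Lgr4 whose groups did not overlap. Over all tested genes this held for 11.5%, with 5.71% in this direction.

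The transporters of the same cells were variable within groups, Slc1a2 mainly in conF1-F and Rhbg in both. Slc1a2, a glutamate transporter, was listed at 0 in conF1-F replicate 1 and had 12.8 and 11.2 RPKM in conF1-F replicates 2 and 3. In iAsF1-F it had 8.31, 9.61 and 6.38 RPKM, below both of those. Its log2 fold change was 0.70 (95% interval −1.996 to 3.40, adjusted p = 0.900 from limma). This turned to −0.53 without conF1-F replicate 1 (adjusted p = 0.870 from limma). Rhbg, an ammonia transporter of the Rhesus family, was listed at 0 in conF1-F replicate 1 and iAsF1-F replicates 1 and 3. In the other livers it had 3.88, 3.95 and 4.58 RPKM, 2 of them conF1-F and 1 iAsF1-F. The livers in which it was above 0 therefore differed little. Its log2 fold change was −0.70 (95% interval −3.18 to 1.77, adjusted p = 0.888 from limma). It ran from −1.53 without iAsF1-F replicate 2 to −0.29 without iAsF1-F replicate 1, and turned to 0.18 with values of 0 taken as missing.

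By level, the order over all 6 livers was Oat (295 RPKM on average), Glul (18.1), Slc1a2 (8.06), Rhbg (2.07), Lgr4 (1.69), Tbx3 (1.196), Axin2 (0.429), Rnf43 (0.207), Lgr5 (0.205) and Znrf3 (0.118). Oat was above every other gene in every liver. All further neighbours in this order overlapped across livers. The order also changed with the group for Lgr4, which was above Tbx3 in every iAsF1-F liver and below it in every conF1-F liver.

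None of the 5 tested genes other than Lgr4 passed the test, where 0.248% of all 6448 genes did (16 genes, 8 in each direction). At an unadjusted p below 0.05 from limma the count was also 0, against 5.12% of all genes. Their median log2 fold change was −0.03, and that of all tested genes 0.00. The intervals of Glul, Slc1a2 and Rhbg are wide enough to hold a change of 1 on the log2 scale in either direction, so that a response of these genes to paternal iAs was not detectable with these livers.

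**Figure D2:**
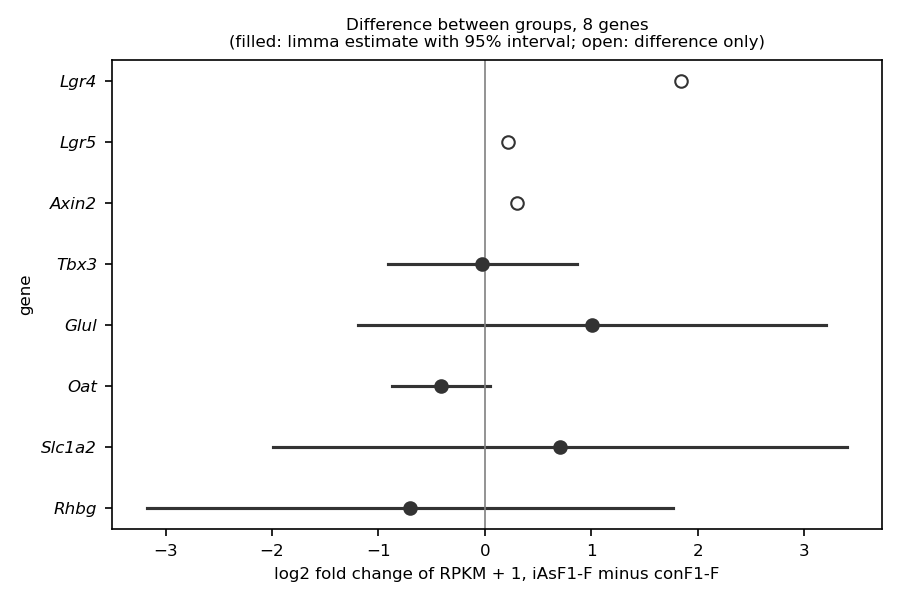
Log2 fold change of RPKM + 1 (x axis, iAsF1-F minus conF1-F) of 8 of the 10 genes (y axis), without Rnf43 and Znrf3, each of which had a group wholly at 0. Filled points are limma estimates with 95% intervals for the 5 tested genes other than Lgr4, all of which include 0, and open points are differences given without a test, the highest being Lgr4 at 1.85.

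The other components of the Wnt pathway gave no gene that passed. Of 96 further ligands, receptors, inhibitors, signalling components and targets, 42 were in the table and 18 of these averaged 1 RPKM or more. Listed genes without a row were not analysed here. Of these 18 genes 10 had a log2 fold change above 0 and 8 below, with a median of 0.13, and 2 (Lrp6 and Ccnd1) had an unadjusted p below 0.05 from limma, where 5.12% of all tested genes did. The groups did not overlap for 3 of them (16.7%), against 11.5% of all tested genes.

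Among ligands, the central vein ligands Wnt2 and Wnt9b were not analysed here. Rspo3, the R-spondin of the central vein, was at 1.797 RPKM in conF1-F replicate 3, at 1.76 RPKM in iAsF1-F replicate 1, and listed at 0 in the other 4 livers. Rspo1 and Wls, which carries Wnt proteins to the cell surface, were the other measured genes of the ligand list, and none of the 3 reached a mean of 1 RPKM.

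Among 6 tested receptors and co-receptors, Lrp6, which binds Wnt together with Frizzled, had the smallest p. It had 0.659, 1.52 and 1.01 RPKM in conF1-F and 2.14, 2.87 and 1.62 RPKM in iAsF1-F, with no overlap. On the log2 scale Lrp6 differed by 0.64 with an SE of 0.25, and did not pass (adjusted p = 0.877 from limma). The Frizzled receptors Fzd8 (log2 fold change 0.17) and Fzd1 (−0.02) and the Wnt-binding kinase-like receptor Ryk (0.35) overlapped between the groups. With single livers left out the value ran from 0.06 to 0.24 for Fzd8 and from 0.10 to 0.74 for Ryk. Fzd1 was even across livers, between 2.33 and 2.63 RPKM.

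Notum, a secreted enzyme that inactivates Wnt and is induced by it, was the single tested inhibitor. It had 5.81, 5.78 and 2.49 RPKM in conF1-F and 3.78, 4.41 and 4.79 RPKM in iAsF1-F. The iAsF1-F livers lay within the conF1-F range (log2 fold change −0.04, adjusted p = 0.999 from limma). With single livers left out the Notum value ran from −0.36 to 0.13. Ccnd1, which encodes cyclin D1 and is a general target of the pathway, was lower in every iAsF1-F liver. It had 7.45, 12.2 and 11.1 RPKM in conF1-F against 5.93, 5.01 and 7.08 RPKM in iAsF1-F. Its log2 fold change was −0.67 (SE 0.21), opposite to Lgr4, and did not pass over all genes (adjusted p = 0.877 from limma).

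Of 10 tested cytoplasmic and nuclear components, 7 had a log2 fold change above 0. The 4 of smallest p were Tle1 (a co-repressor of TCF factors, log2 fold change 0.33), Dvl1 (Dishevelled, which relays the receptor signal, 0.29), Gsk3a (a kinase that acts on β-catenin, 0.72) and Pygo2 (a co-activator of β-catenin, 0.44). None of them passed (adjusted p = 0.877 each, limma). Gsk3a was at 0.561 RPKM in conF1-F replicate 3 and at 6.32 to 8.06 RPKM in the other livers, and its log2 fold change was −0.09 without that liver. Pygo2 was listed at 0 in conF1-F replicate 2, without which its log2 fold change was −0.10. Dvl1 had 0.08 without conF1-F replicate 3, and Tle1 0.15 without conF1-F replicate 2. Ctnnb1, the gene of β-catenin, is named for its role and not by the rule. It had 7.72, 7.73 and 2.64 RPKM in conF1-F and 7.26, 6.20 and 8.02 RPKM in iAsF1-F, and so stood apart only in conF1-F replicate 3.

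As a wider readout, 27 further pericentral genes were tested, and none passed. Of these, 14 had a log2 fold change above 0 and 13 below, with a median of 0.00, as for all genes. With single livers left out the pericentral median lay between −0.02 and 0.06. Cyp2e1, the ethanol-oxidizing cytochrome P450 that marks the pericentral zone of the lobule, was at 792 ± 77.3 RPKM in conF1-F and 679 ± 4.11 RPKM in iAsF1-F (SD, n = 3 each). All 3 iAsF1-F livers were below all 3 conF1-F livers, with a log2 fold change of −0.22 (95% interval −0.42 to −0.02, adjusted p = 0.877 from limma), or −0.14 without conF1-F replicate 2. Ahr, the aryl hydrocarbon receptor, had 5.23, 4.69 and 5.70 RPKM in conF1-F and 4.27, 1.92 and 0.373 RPKM in iAsF1-F. This was also without overlap, and the log2 fold change of −1.16 had a 95% interval of −2.41 to 0.09 (adjusted p = 0.877 from limma). Without iAsF1-F replicate 3, its lowest liver, it was −0.66. Cyp2c29, a cytochrome P450, and Rgn, regucalcin, had log2 fold changes of 0.25 and 0.22 with overlapping groups. Gstm1, a glutathione transferase, was the 1 pericentral gene without overlap in the other direction, at 117, 234 and 236 RPKM in conF1-F and 277, 248 and 256 RPKM in iAsF1-F. The pericentral genes thus had 3 of 27 without overlap (11.1%), close to the 11.5% of all tested genes.

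Genes of the opposite, periportal end of the lobule had more members above 0. Of 19 tested, 15 had a log2 fold change above 0, with a median of 0.16, and none passed. Over all 6448 tested genes, 3205 were above 0. The groups did not overlap for 3 of them (15.8%), against 11.5% of all tested genes. All 3 were higher in iAsF1-F, a direction that held for 5.83% of all genes. Fbp1, fructose-1,6-bisphosphatase of gluconeogenesis, was at 203 ± 10.1 RPKM in conF1-F and 250 ± 10.3 RPKM in iAsF1-F (SD, n = 3 each). Its difference of 0.30 on the log2 scale had an SE of 0.06 and did not pass (adjusted p = 0.562 from limma). Uroc1, urocanase of histidine breakdown, was at 36.3 ± 1.48 and 46.7 ± 4.09 RPKM, and Serpina1c, an α1-antitrypsin, at 1390 ± 126 and 1721 ± 46.3 RPKM (SD, n = 3 each). Their adjusted p from limma was 0.715 and 0.774. Pck1, phosphoenolpyruvate carboxykinase, had a log2 fold change of 1.05 with overlapping groups.

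**Figure D3:**
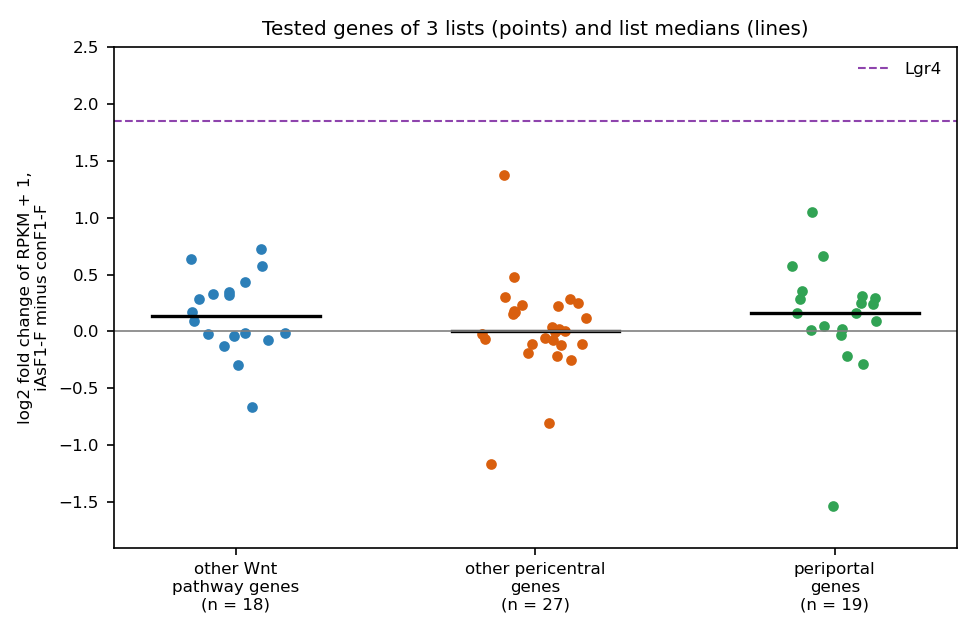
Log2 fold change of RPKM + 1 (y axis, iAsF1-F minus conF1-F) of single tested genes (points) in 3 lists, with list medians (black lines) and Lgr4 (dashed line, 1.85). The 27 pericentral genes centre on 0.00, the 18 other Wnt pathway genes on 0.13 and the 19 periportal genes on 0.16.

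Liver by liver, the pericentral list gave no order that matched Lgr4. Its median deviation from the gene means was 0.06, 0.08 and −0.11 (log2 scale) in conF1-F and 0.04, 0.06 and −0.05 in iAsF1-F. For periportal genes it was −0.15, −0.08 and −0.02 in conF1-F and 0.12, 0.09 and 0.13 in iAsF1-F. Hepatocyte markers were measured beside these lists. The log2 fold change of all 7 tested markers was above 0, with a median of 0.16. The groups did not overlap for 3 of them, all higher in iAsF1-F (42.9%, against 11.5% of all tested genes). The lowest liver for these markers was conF1-F replicate 1, with a deviation of −0.32 where the other 5 livers had 0.01 to 0.17. The part of the hepatocyte share in the periportal values was not tested. Without that liver the periportal median was 0.14 and the pericentral median 0.06.

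The same liver, conF1-F replicate 1, had the lowest value for Lgr4, Axin2, Tbx3 and Slc1a2. Znrf3 and Rhbg were listed at 0 in it, but also in other livers (4 and 3 livers in all). conF1-F replicate 1 also had the highest summed markers of Kupffer, cholangiocyte, stellate and erythroid cells. The sum of 5 measured Kupffer cell markers was 163 RPKM there and 51.2 to 124 RPKM in the other livers, and that of 2 cholangiocyte markers 18.8 RPKM against 3.58 to 5.88 RPKM. The 5 erythroid markers summed to 647 RPKM in it, within a conF1-F range of 372 to 647 RPKM, and to 237 to 367 RPKM in iAsF1-F, without overlap. Of 4 tested erythroid markers, 2 did not overlap (50%, against 11.5% of all tested genes), both lower in iAsF1-F. An unadjusted p below 0.05 from limma was found for 3 of the 4, against 5.12% of all tested genes. The 6 stellate cell markers summed to 29.9 to 52.1 RPKM in conF1-F and 38.9 to 44.8 RPKM in iAsF1-F. The 8 endothelial markers summed to 11.8 to 15.8 RPKM in conF1-F and 2.996 to 16.03 RPKM in iAsF1-F. None of the tested marker genes passed the test, and 5 of 8 endothelial, 4 of 6 stellate, 2 of 5 Kupffer and 1 of 2 cholangiocyte markers were listed at 0 in some liver. Their part in the levels of Axin2, Tbx3, Slc1a2 and Rhbg was not tested. Lgr4 had a log2 fold change of 1.82 without this liver.

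**Figure D4:**
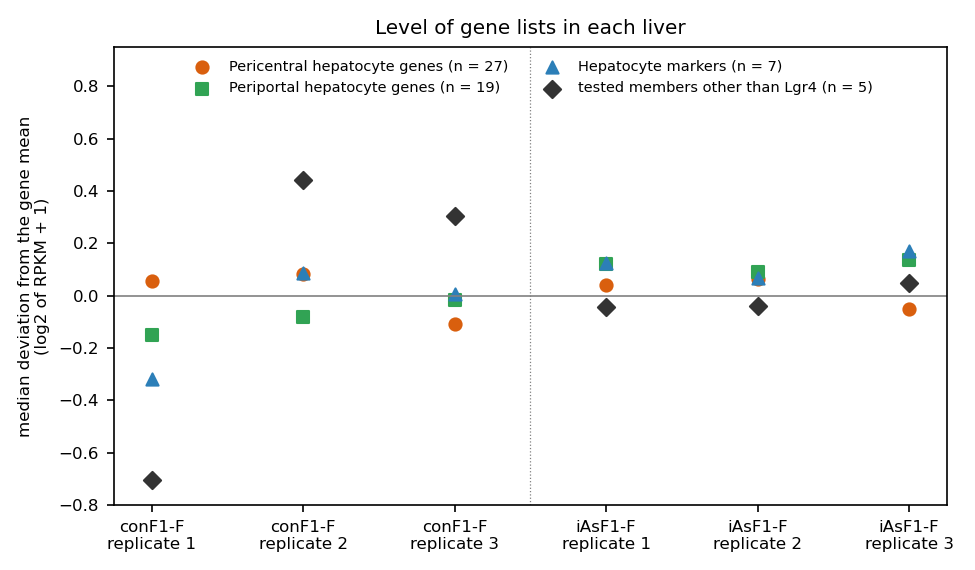
Median deviation from the gene mean (y axis, log2 of RPKM + 1) of 4 gene lists in each liver (x axis). Periportal genes lie below 0 in all 3 conF1-F livers and between 0.09 and 0.13 in iAsF1-F, pericentral genes vary within both groups, and the 5 tested genes other than Lgr4 are lowest in conF1-F replicate 1 (−0.70).

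The genes whose pattern over the 6 livers was most like that of Lgr4 were sought among 5186 tested genes above 0 in every liver. The measure was the mean absolute difference of deviations on the log2 scale. The closest were Tspan4, a tetraspanin (0.21), Dsc2, a desmosomal cadherin (0.22), Leng8 (0.28), Scd1, stearoyl-CoA desaturase (0.31), and Lpin2, a phosphatidate phosphatase (0.32). Tspan4 had 0.0892, 0.0769 and 0.116 RPKM in conF1-F and 3.88, 5.19 and 3.87 RPKM in iAsF1-F. Leng8 had 0.144, 0.333 and 0.232 RPKM in conF1-F and 2.18, 2.07 and 1.82 RPKM in iAsF1-F. Since Lgr4 was selected on the difference between these groups, genes most like it separate them by way of this search. Tspan4, Dsc2, Leng8 and Lpin2, like Lgr4, reached the minimum for the test only through their iAsF1-F values.

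For Glul the closest genes were Rps27a (0.12), Gm11407 (0.16), Chmp3 (0.24), Rpsa (0.26) and Mir5116 (0.27). Rps27a and Rpsa are ribosomal proteins. All 5 were at their highest in iAsF1-F replicate 3, which follows from picking them for likeness to Glul. Rps27a had 8.39 RPKM in that liver and 0.0283 to 0.156 RPKM in the others, and Rpsa 14.9 RPKM against 0.116 to 0.339 RPKM. Rps27a, Chmp3, Rpsa and Mir5116 reached the minimum for the test only through their value in that liver. Ribosomal protein genes have near-identical copies in the genome, and how reads shared with such copies were counted is not given in the sources used here.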

How the data were processed

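RNA-seq of 3 conF1-F and 3 iAsF1-F livers was used. The deposited values are RPKM, which the authors had made per gene and library. Tools in the processing notes of the submitters are STAR (2.5.3a), DESeq2 (1.8.2) and HTSeq, with the build mm10, and the program behind the RPKM values is not given in the sources used here. The series table equalled the tables of single libraries in all 105744 cells. In them, 13 cells shown as dates or times were converted back to numbers, and 13 symbols shown as dates were looked up by gene ID. GENCODE M21 (GRCm38) gave positions for 17541 genes.

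The test was that of limma (version 3.58.1, R 4.3.3) on log2(RPKM + 1) for genes averaging 1 RPKM or more, with a group term, a variance trend and Benjamini-Hochberg adjustment. The fit was tested on simulated data. Exact permutation tests were two-sided. Python 3.11.15, numpy 2.4.6, pandas 2.3.3 and matplotlib 3.10.9 were used. Read numbers were not known, and counting error is not given.

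The members and lists were chosen with earlier results of these data known. Named are all 10 genes, the 4 genes of smallest p per Wnt, pericentral and periportal list, and the 5 genes most like Lgr4 and Glul. Outside this rule, Rspo3 and Ctnnb1 are named for their role, and Gstm1 and the genes of the closing section after their values were seen. Alternatives were a pseudocount of 0.1, no minimum, a minimum of 5 RPKM, the replicate number as a block, a robust fit, 3 rescalings, 2 treatments of 0s, and leaving out each liver.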

Additional observations from a re-analysis of the deposited data

How the results depend on the processing

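Lgr4 carries no test. None of the 9 other genes passed in any of the 16 alternatives in which it was tested. Nor did any other pericentral, periportal or Wnt gene. Of the 9 genes, 3 to 5 were tested in most, and all 9 only with no minimum. Over all genes 16 passed, and 1 with a minimum of 5 RPKM, 5 without genes listed at 0, 5 with 0s as missing, and 26 to 38 with a liver left out. With the replicate number as a block 0 passed (281 at an unadjusted p below 0.05, limma). Same-numbered livers did not deviate together (correlations −0.07, 0.02 and 0.01 over 6448 genes). Whether the number pairs livers by father or litter is not given, and these correlations cannot decide it. The cause of these shifts was not tested. The 3 rescalings gave the same 16 genes. The Tbx3 log2 fold change of −0.03 turned to 0.11 with a pseudocount of 0.1, and ran from −0.38 (without conF1-F replicate 1) to 0.19 (without conF1-F replicate 2) with a liver left out. That of Slc1a2 turned to −0.53 with 0s as missing, and ran from −0.53 without conF1-F replicate 1, its liver at 0, to 1.36 without conF1-F replicate 2. That of Rhbg turned to 0.18 with 0s as missing. The periportal median was 0.25 with 0s as missing and 0.13 to 0.26 with a liver left out. With a pseudocount of 0.1 the Lgr4 log2 fold change was 3.62. Unknown depth and the many values of 0 limit all genes below 1 RPKM.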

Other observations

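Some other zonated genes also had 1 liver far from the rest, seen after the values were known. Among the 52 tested members and zonated genes, 3 were more than 5 times the next highest in a single liver and 4 more than 5 times below the next lowest. In iAsF1-F replicate 3, Slco1b2, a hepatic organic anion transporter, had 29.2 RPKM, like Glul above its range elsewhere (0.407 to 1.13 RPKM). In the same liver Asl, argininosuccinate lyase of the urea cycle, had 0.710 RPKM against 12.2 to 29.3 RPKM. In iAsF1-F replicate 2, Ass1, argininosuccinate synthase, had 6.69 RPKM against 0.609 to 0.974 RPKM, and Cyp2f2, a periportal cytochrome P450, was listed at 0. Cyp2f2 had 1.42 RPKM in conF1-F replicate 2 and 52.2 to 89.9 RPKM in the other 4 livers. Over all 6448 tested genes, 9 to 29 per liver were this high in that liver alone (104 genes, 1.61%) and 62 to 189 this low. Among the 52 genes it was 0 to 2 per liver in each direction. Lows in a single liver were thus frequent over all genes. Highs made up a larger share of the 52 genes (3 genes) than of all 6448 (104 genes). This was seen after the values were known and rests on few genes. Neither the lows nor the highs are read as a trait of zonated genes.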
